A study of Xenopus tropicalis with 3 samples.

Results

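The HoxA cluster is described here through its accessible chromatin in the urostyle of Xenopus tropicalis at stage 65, near the end of metamorphosis. The stretch examined ran from hoxa2 to hoxa13 on chromosome 6 and 100 kb beyond each of these outermost genes, 287 kb in all, and held 54 of the 311625 ATAC-seq peaks of that stage. Of 8 member genes, 7 were placed by symbol in the UCB_Xtro_10.0 gene table. They were hoxa2, hoxa3, hoxa4, hoxa5, hoxa9, hoxa11 and hoxa13. The symbol hoxa10 matched no symbol or synonym of the table, so it has no values here. Within this stretch, peaks were taken by position alone, and no measured value chose them. The member genes were chosen with earlier results of these data known.

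ATAC-seq marks open DNA with a transposase. The urostyle, the rod of bone behind the sacrum of frogs, was profiled in tadpoles at stage 56, stage 61 and stage 65, each with 1 library. The labels say that tissue was dissected on ice and crushed, while the design text of the series speaks of laser capture. The labels give neither the number of animals behind a library nor their strain. The stage 65 list alone was used, because the lists of stages 56 and 61 (4564 and 6806 peaks) use chromosome names of another kind and their coordinates could not be set against the gene table. With 1 library there is no biological replicate, so no test was made. Intervals cover only counting error, or the spread between peaks or genes of this library, and not variation between animals.

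Hox genes encode homeodomain transcription factors that give body regions along the head-to-tail axis their identity. Within a cluster they lie in the order of the regions they pattern, and anterior genes are generally switched on before posterior ones. In vertebrates all genes of a cluster are transcribed in the same direction, with their start on the side of the posterior genes. The gene table holds no strand, so gene ends are named below by whether they face hoxa13 or not. Crushed tissue, which the labels name, mixes cell types. A site open in few cells and a site weakly open in many cannot be told apart.

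A fold in the stage 65 list is the authors' own value for each peak. It was read as the pileup of fragments at the summit plus 1, over a background plus 1. Folds came in whole steps of 0.150, which with this reading gives 1 background of 5.68 fragments for the whole library. Each fold could therefore be turned back into a number of fragments. Over all stage 65 peaks the median pileup was 21 fragments (quartiles 17 and 27), the median fold was 3.29 and the median width was 569 bp. Gene ends are common places for peaks: within 1 kb, either end of a gene carried one in 85.7% of 21749 protein-coding genes. Among tissue markers, peaks at gene ends were present for 5 of 6 cartilage, 5 of 5 bone and 4 of 4 notochord genes. They were also present for 4 of 4 muscle, 4 of 4 neural, 4 of 4 blood and 2 of 4 epidermis genes. The best gene-end folds of these markers differed more, with medians of 3.89 for cartilage, 5.84 for bone and 3.74 for notochord. The medians were 8.31 for muscle, 8.46 for neural, 23.7 for blood and 3.37 for epidermis genes.

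Accessible sites in the HoxA cluster had a median fold at the lower quartile of windows of its length, and middling density. From the outer end of hoxa2 to the outer end of hoxa13, a stretch of 87.1 kb, 17 peaks covered 13.2% of the sequence. Their folds ran from 2.40 to 5.39 with a median of 2.99 (binomial 95% interval 2.55 to 3.74), and 6 of the 17 lay above the median of the whole stage 65 list, 1 at it and 10 below it. In consecutive windows of that length the median fold had quartiles of 2.99 and 3.52, and 16.9% had a lower value than HoxA. The highest fold of a window had quartiles of 5.09 and 15.7, and 28.2% had a lower one than HoxA. Widths ran from 284 to 1931 bp with a median of 489 bp (interval 422 to 653), against quartiles of 465 and 660 bp for the median width of windows of that length. In fragments, the weakest summit had 15 and the strongest had 35, with exact Poisson 95% intervals of 8.40 to 24.7 and 24.4 to 48.7. The difference between these summits was not tested. A summit is chosen as the highest point of its peak, which such an interval does not take into account.

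**Figure D1:**
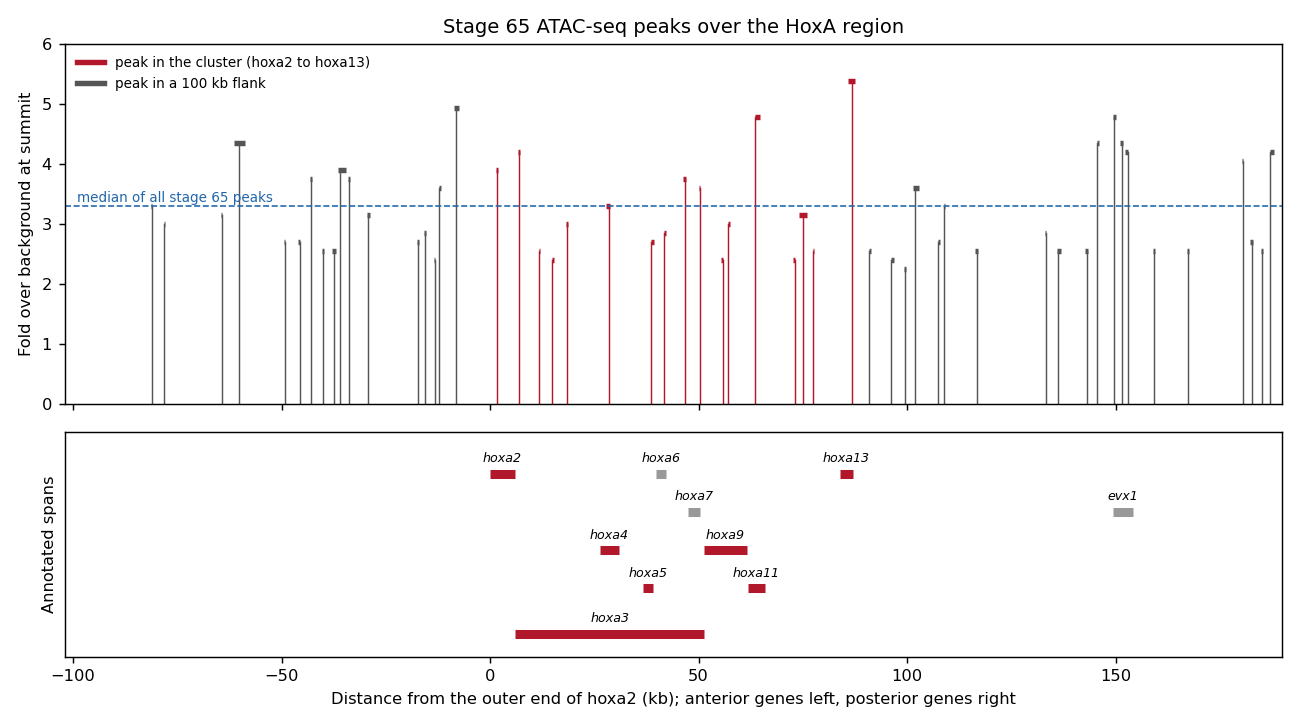
Peaks of the stage 65 list along the HoxA region. The upper panel gives the fold at each summit (vertical axis) against the distance from the outer end of hoxa2 in kb, with horizontal bars drawn to the width of the peak, peaks of the cluster in red, flanking peaks in grey and the list median of 3.29 dashed; the lower panel gives annotated spans, with members in red. The tallest peak, at 5.39, lies at hoxa13. Spans are drawn from hoxa2 onward, without LOC and microRNA genes.

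Anterior genes are described first. The gene hoxa2, known from mouse to pattern the hindbrain and the skeleton of the second pharyngeal arch, had a single peak in its span at 42147292 to 42147776 (485 bp, fold 3.89, 25 fragments, interval 16.2 to 36.9). It covered 8.21% of the 5906 bp span. A further peak at 42152677 to 42153234 (558 bp, fold 4.19, 27 fragments) began 824 bp beyond the hoxa13-facing end of hoxa2 and 725 bp inside the neighbouring hoxa3. It was the highest peak of the anterior part of the cluster and lay within 1 kb of an end of both genes.

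The annotated span of hoxa3, known from mouse for patterning the throat organs such as the thymus, is 45353 bp long and runs over hoxa4, hoxa5, hoxa6 and hoxa7. It therefore held 9 peaks, several of which lie in other genes as well, and 10.8% of it was covered. Between hoxa2 and hoxa4, apart from the peak just named, 3 peaks were called with folds of 2.40, 2.55 and 2.99 and widths of 364 to 489 bp. These 3 had 15, 16 and 19 fragments at their summits, below the list median of 21. The peak of fold 2.40 overlapped the long non-coding RNA gene LOC105947685.

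The gene hoxa4, a patterning gene of the neck region in mouse, carried 1 peak in the middle of its span at 42173807 to 42174804 (998 bp, fold 3.29, 21 fragments). It was wide for its height: 86.9% of stage 65 peaks with the same pileup were narrower. No peak lay within 1 kb of either end of hoxa4, the nearest edges being 1947 bp from the hoxa13-facing end and 1502 bp from the other. The 5950 bp between hoxa4 and hoxa5 held 0 peaks. The gene hoxa5, which patterns the neck and upper trunk skeleton in mouse, had 1 peak at 42184528 to 42185180 (653 bp) across its hoxa13-facing end. With a fold of 2.69 and 17 fragments (interval 9.90 to 27.2), it was the weakest of the peaks that crossed an end of a hoxa gene.

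Between hoxa5 and hoxa9 lie hoxa6 and hoxa7, which are no members but were measured for the order along the cluster. A peak at 42187578 to 42188037 (fold 2.84) ended 100 bp short of the hoxa13-facing end of hoxa6. At hoxa7, a peak at 42196050 to 42196386 (337 bp, fold 3.59) crossed the hoxa13-facing end. This narrow peak was also within 1 kb of the far end of hoxa3 and of the near end of hoxa9, so it alone gives hoxa9 its gene-end peak. One more site of fold 3.74, at 42192304 to 42192900, lay 436 bp outside the other end of hoxa7. It also lay inside the long non-coding RNA gene LOC116411597. That gene's span held 3 peaks, among them those at hoxa5 and hoxa6.

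Among the posterior members, the best peak of a span had 19 fragments at hoxa9 (interval 11.4 to 29.7), 31 at hoxa11 (21.1 to 44.0) and 35 at hoxa13 (24.4 to 48.7), with overlapping intervals. The gene hoxa9, active in the trunk and also known as a blood stem cell regulator in mammals, has a span of 10217 bp with 2 peaks of fold 2.40 and 2.99, which covered 7.82% of it. The smaller, at 42201416 to 42201699, was 284 bp wide and the narrowest of the whole region. The microRNA gene mir196b, whose product targets hox messages in vertebrates, sits inside the hoxa9 span and had 0 peaks; the nearest peak edge was 2452 bp from its midpoint, toward hoxa11.

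The gene hoxa11, required in mouse for the sacral region and the forearm and shank, had 1 peak at 42209385 to 42210562 (1178 bp, fold 4.79). It was the second highest of the cluster and covered 28.3% of the span. Its edges lay 1278 bp from the hoxa13-facing end and 1701 bp from the other, so hoxa11 had no peak within 1 kb of an end although its span held a strong one. The same peak is the closest to the hoxa13-facing end of hoxa9, at 1947 bp.

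The gene hoxa13, the most posterior of the cluster and known from mouse for the digits and the hind end of the gut and urogenital tract, carried the highest peak of the whole region. It lay at 42231677 to 42233507 (1831 bp, fold 5.39), crossed the end of hoxa13 that faces out of the cluster and covered 41.6% of the 3227 bp span. Its summit was 249 bp inside the gene. Between hoxa11 and hoxa13, 3 peaks of fold 2.40, 3.14 and 2.55 were called, of which the first 2 overlap the protein-coding gene LOC101733863. The middle of these, at 42219953 to 42221883, was 1931 bp wide and the widest of the cluster. Of 20458 stage 65 peaks with its pileup of 20 fragments, 99.6% were narrower.

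No trend of fold with position was detectable along the cluster. The Spearman correlation of fold with summit position, from anterior to posterior, was 0.0074 over the 17 peaks, which all come from 1 library, and its approximate 95% interval of -0.47 to 0.49 leaves room for a moderate trend either way. The correlation of width with position was 0.20. In the posterior part, from midway between hoxa5 and hoxa9 to the outer end of hoxa13, 9 peaks had a median fold of 3.14 (range 2.40 to 5.39) and in the anterior part, from hoxa2 to that midpoint, 8 peaks had a median fold of 2.92 (range 2.40 to 4.19). Intervals of the medians, 2.40 to 4.79 in the posterior part and 2.40 to 4.19 in the anterior part, overlapped almost wholly. Among peaks with -log10 q of at least 5 the difference of the medians turned round to -0.15. That is only 1 step of the fold scale, or 1 fragment at a summit.

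Peak density was 2.15 per 10 kb in the posterior part (exact Poisson interval 0.981 to 4.07) and 1.77 per 10 kb in the anterior part (0.765 to 3.49), a difference smaller than its counting error. Peaks covered 16.7% of the posterior part and 9.81% of the anterior part. The peaks at hoxa13 and in LOC101733863, the 2 widest of the cluster, both lie in the posterior part. Without these, chosen after seeing the data, coverage was 8.93% in the posterior part and 9.81% in the anterior part. Leaving them out could only lower the posterior value. Of the 4 peaks at least 900 bp wide, 3 lay in the posterior part and 1 in the anterior part.

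**Figure D2:**
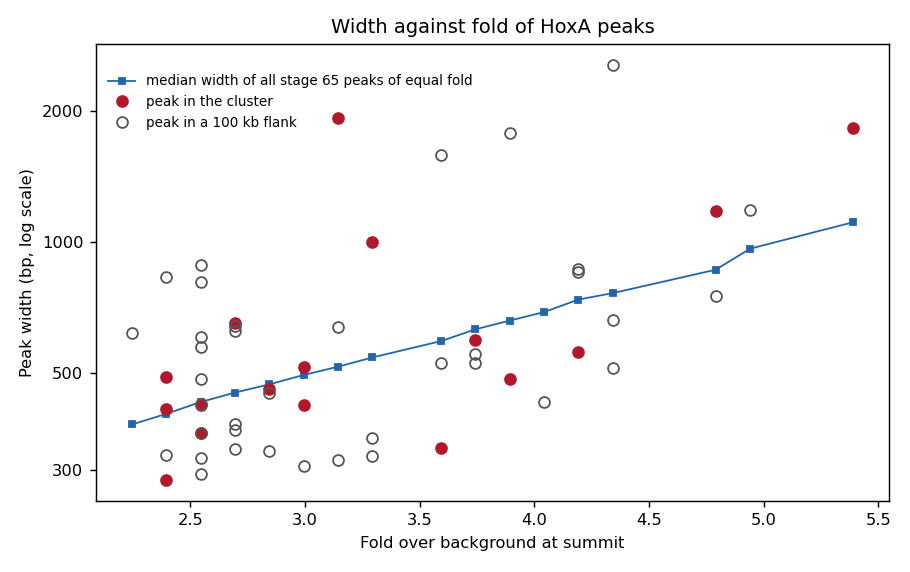
Width of each HoxA peak in bp (vertical, log scale) against its fold (horizontal), with peaks of the cluster as filled red points, flanking peaks as open points and, in blue, the median width of all stage 65 peaks of the same fold. Of the 17 cluster peaks 8 lie above the blue line and 9 below it; the peak of 1931 bp at a fold of 3.14 stands farthest above it.

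Width followed fold within the cluster (Spearman 0.59 over 17 peaks), as the median over all peaks of equal pileup also rises with fold. Of the 17 peaks, 8 were wider than the median of stage 65 peaks with the same pileup and 9 were narrower. The hoxa13 peak, at 1831 bp, was wider than 78.9% of its 2435 equals, whose median was 1110 bp. The hoxa11 peak was wider than 67.3%. At the other end stood the hoxa7 peak, wider than 11.8% of its equals, and the smaller hoxa9 peak, wider than 3.08%. The hoxa2 and hoxa3 peaks of fold 3.89 and 4.19 were wider than 29.8% and 32.5% of theirs.

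Neighbouring summits in the cluster were a median of 4948 bp apart (interval 3073 to 9333), from 1375 bp between the 2 hoxa9 peaks to 10073 bp between the peaks of hoxa4 and hoxa5. Spacings over 8 kb numbered 4 of 16. They flanked hoxa4 on both sides, at 10040 and 10073 bp, and lay on both sides of the group of 3 peaks between hoxa11 and hoxa13, at 9501 and 9333 bp. The stretch between hoxa4 and hoxa5 was the longest without a peak in the cluster, at 9723 bp from edge to edge. In 16626 consecutive windows of 87.1 kb on chromosomes 1 to 10 the median spacing had quartiles of 2620 and 4626 bp, and 78.6% had a lower value than HoxA. The number of peaks and the share covered were middling beside windows of this length. The 17 HoxA peaks compare with a median of 18 (quartiles 13 and 24), and the 13.2% covered with a median of 14.8% (quartiles 9.60 and 24.7).

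**Figure D3:**
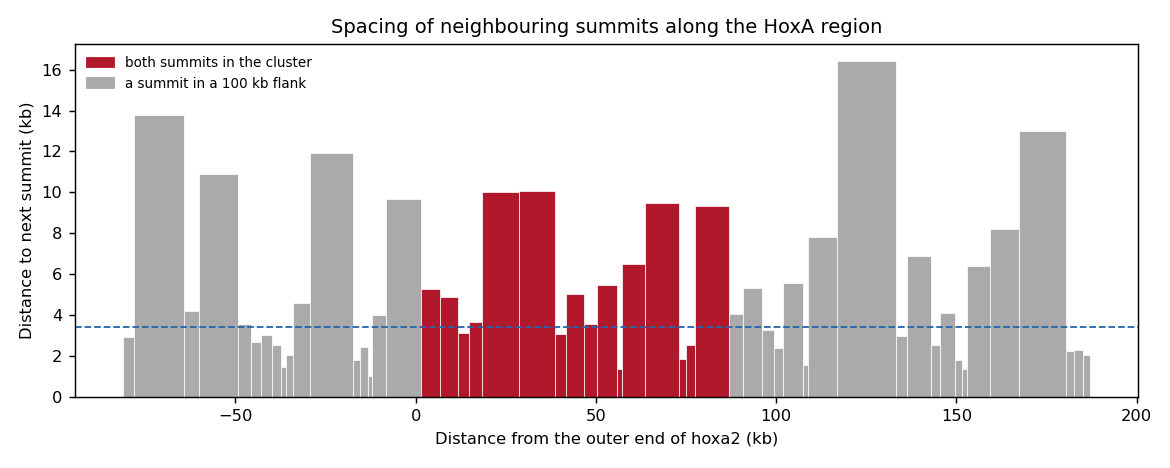
Distance from each summit to the next in kb (vertical and as bar width) along the HoxA region, as distance from the outer end of hoxa2 in kb. Red bars have both summits in the cluster, grey bars have a summit in a flank, and the dashed line is the median of the median spacings over windows of equal length, 3.39 kb; the widest spacing, 16.4 kb, lies in the posterior flank.

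Peaks at member ends were counted separately for the 2 sides of a gene. By the end base lying inside a peak, 2 of 7 members (hoxa5 and hoxa13) had their hoxa13-facing end in a peak and 0 of 7 had the other end in one. Over all protein-coding genes 29.5% of the higher-coordinate ends, the side that faces hoxa13 here, and 28.9% of the lower-coordinate ends lay in a peak, each side being a mix of gene starts and finishes. With hoxa6 and hoxa7 included, the counts were 3 of 9 and 0 of 9. Summits lay inside the gene at 373 bp from the hoxa13-facing end in hoxa5, 503 bp in hoxa6, 175 bp in hoxa7 and 249 bp in hoxa13. The genes hoxa2, hoxa3, hoxa4, hoxa9 and hoxa11 had no summit that close to that end. The annotated end of hoxa3 on that side lies beyond hoxa7.

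Within 1 kb, 4 of 7 hoxa13-facing ends and 2 of 7 other ends had a peak, against 65.5% of higher-coordinate and 65.4% of lower-coordinate ends over all protein-coding genes. By gene, either end was reached within 1 kb in 5 of 7 members (71.4%, exact Clopper-Pearson interval 29.0 to 96.3), against 85.7% of all protein-coding genes. It was 2 of 7 within 500 bp, against 76.8% of protein-coding genes, 7 of 7 within 2500 bp, against 95.2%, and 4 of 7 with the summit itself within 1 kb, against 75.4%. The 1 kb count leans on shared peaks, since 1 peak serves hoxa2 and hoxa3 and another serves hoxa3 and hoxa9. The best gene-end fold had a median of 4.19 over these 5 members, against 4.34 over the 18639 protein-coding genes with such a peak. This median also leans on sharing, since hoxa2 and hoxa3 both take the value of 4.19 from the same peak. All 7 member spans held a peak, as did 92% of protein-coding spans and 85.9% of those of 2233 to 10217 bp, the range of the 6 members other than hoxa3. The covered share of a span had a median of 20.3% over those 6 members, against 20.2% over the 6191 protein-coding genes in that range.

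**Figure D4:**
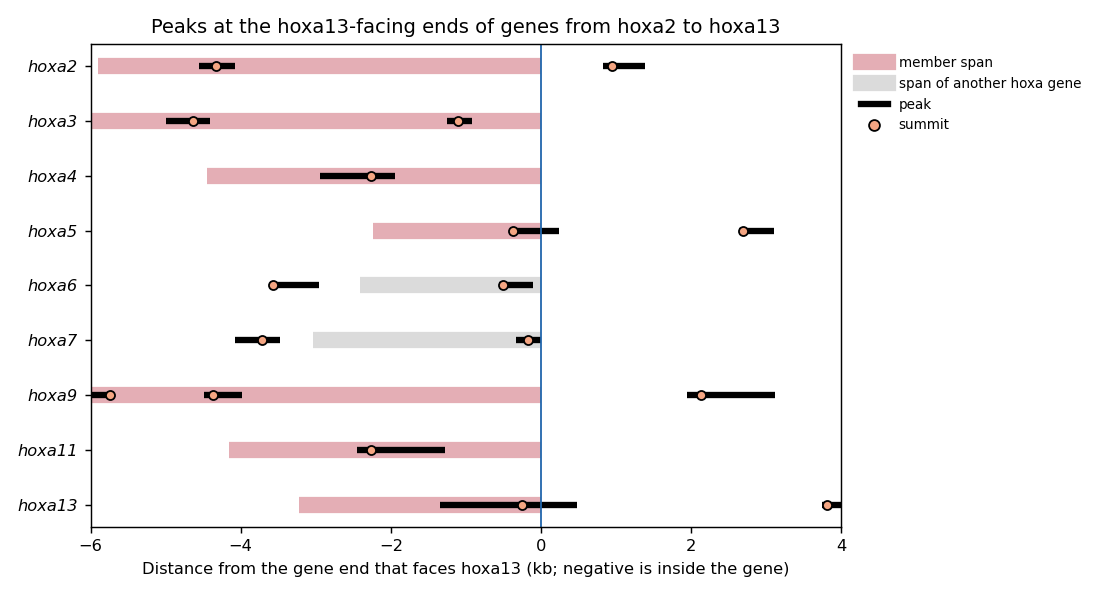
Peaks (black bars) and summits (circles) around the gene end that faces hoxa13 (blue line; for hoxa13, its outer end), with distance in kb on the horizontal axis, negative inside the gene, and 1 row per hoxa gene annotated from hoxa2 to hoxa13, from anterior to posterior. Shaded bars are gene spans, cut at 6 kb; peaks cross the line in hoxa5, hoxa7 and hoxa13.

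The flanks had folds in the same range as the cluster. The anterior flank held 17 peaks in 100 kb with folds of 2.40 to 4.94 (median 3.14), and the posterior flank held 20 with folds of 2.25 to 4.79 (median 2.69). Annotated genes were listed only from hoxa2 onward, so genes of the anterior flank are not named here. In this flank lay the widest peak of the region, at 42084520 to 42087072 (2553 bp, fold 4.34). It was wider than 97.6% of peaks of its pileup. Another, at 42109527 to 42111304, was 1778 bp wide with a fold of 3.89.

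In the posterior flank the higher peaks gathered at evx1, a homeobox gene that adjoins the HoxA cluster in vertebrates and acts in the hind axis and in spinal interneurons. Its span held 3 peaks with folds of 4.79, 4.34 and 4.19, which covered 47.5% of it, and the first of them began 15 bp inside the end that faces hoxa13. A further peak of fold 4.34 lay at 42291411 to 42291923, on the way to hoxa13. Between hoxa13 and evx1 the longest gap between neighbouring peaks of the region, 16011 bp, followed the peak at 42262328 to 42262933. At the limits of the region, the outermost peak inside was at 42064626 to 42064979 (fold 3.29) in the anterior flank and at 42332988 to 42333855 (fold 4.19), across the limit, in the posterior flank. Just outside lay peaks at 42045111 to 42045755 (fold 2.40) and 42342843 to 42343155 (fold 2.55).

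Against stretches of the same length, the HoxA region had a middling number of peaks and low folds. It held 54 peaks, against a median of 59 (quartiles 45 and 77) in 5044 consecutive windows of 287 kb. Peaks covered 12.4% of it, against a median of 14.9% (quartiles 10.5 and 24.5). The highest fold, 5.39, compares with a median of 13.2 for the highest peak of a window (quartiles 7.64 and 26.4), and 238 of the 5044 windows had a lower one. The median fold of 2.99 compares with quartiles of 3.07 and 3.44, and 7.53% of windows had a lower median.

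Between the outermost listed genes of the 4 hox clusters, HoxA had the lowest point values of peak density and fold. These stretches differ in length, at 87.1 kb with 17 peaks in HoxA, 107 kb with 29 in HoxB, 280 kb with 69 in HoxC and 166 kb with 41 in HoxD. Their anterior limits are also unlike, as the lists began at hoxa2, hoxb1, hoxc3 and hoxd1. The highest HoxB fold, 10.6, was also the best gene-end fold of hoxb1. HoxA had 1.95 peaks per 10 kb (interval 1.14 to 3.13), HoxB 2.71 (1.81 to 3.89), HoxC 2.46 (1.91 to 3.11) and HoxD 2.47 (1.77 to 3.36). These intervals overlap, and with 1 library no test was made between the clusters. Peaks covered 13.2% of HoxA, 20.6% of HoxB, 15.6% of HoxC and 39.3% of HoxD. The highest fold was 5.39 in HoxA, 10.6 in HoxB, 12.4 in HoxC and 28.1 in HoxD, and the widest peak was 1931 bp in HoxA, 2828 bp in HoxB, 2567 bp in HoxC and 21561 bp in HoxD. Highest values grow with the length searched: the median highest fold of a window was 7.49 at 87.1 kb and 13.2 at 287 kb. Median folds lay closer together, at 2.99 in HoxA, 3.59 in HoxB, 3.14 in HoxC and 3.29 in HoxD, with overlapping intervals.

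**Figure D5:**
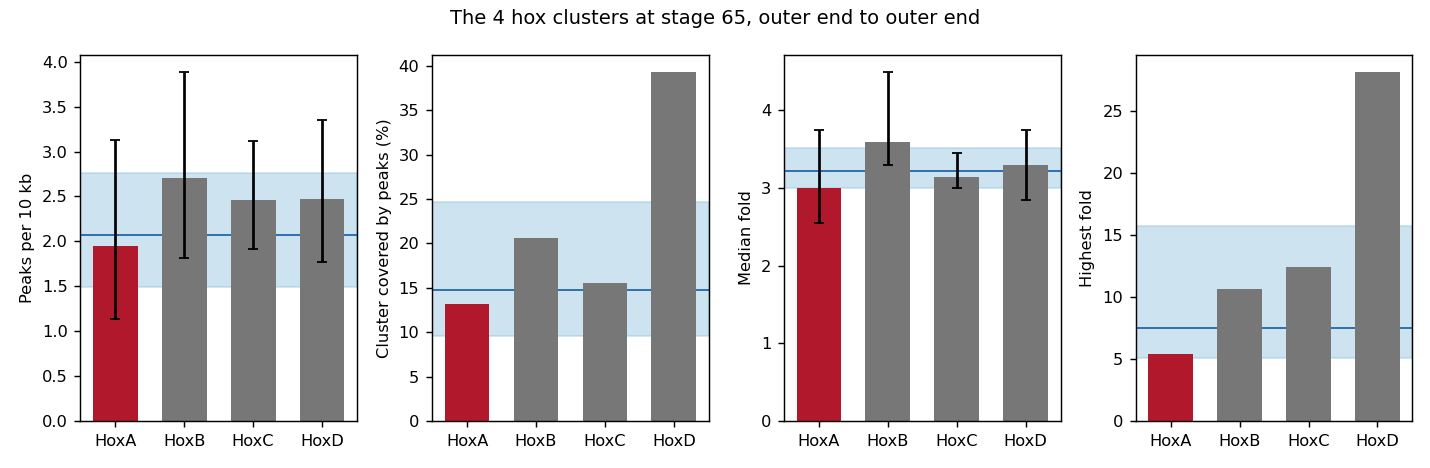
Peaks per 10 kb, share covered in percent, median fold and highest fold (vertical axes, from left to right) of the HoxA cluster in red and the HoxB, HoxC and HoxD clusters in grey. Error bars are exact Poisson intervals for density and binomial intervals for the median; blue lines and bands are the median and quartiles of consecutive 87.1 kb windows, and HoxA is lowest of the 4 in each panel.

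The same counts were made in the other clusters. A peak held the posterior-facing end base of 2 of 7 HoxA members, 3 of 9 HoxB, 6 of 10 HoxC and 3 of 7 HoxD genes, together 14 of 33. It held the anterior-facing end base of 0 of 7, 1 of 9, 0 of 10 and 0 of 7, together 1 of 33. All protein-coding genes had 29.5% of their higher-coordinate and 28.9% of their lower-coordinate end bases in a peak. Within 1 kb, a peak reached the posterior-facing end of 4 of 7 HoxA, 7 of 9 HoxB, 10 of 10 HoxC and 5 of 7 HoxD genes, and the anterior-facing end of 2 of 7, 6 of 9, 5 of 10 and 2 of 7. The difference between sides was not tested. The correlation of fold with position toward the posterior end was 0.0074 in HoxA, -0.25 in HoxB, 0.15 in HoxC and 0.28 in HoxD, each over the peaks of 1 cluster and 1 library.

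Genes that act with or upon hox clusters mostly had a peak at a gene end, as did 85.7% of 21749 protein-coding genes. Cofactors that bind DNA together with Hox proteins had one in 8 of 8 measured members, with folds from 2.69 at pknox2 to 27.5 at pknox1 and a median of 3.97. Among regulators of hox clusters it was 19 of 20, with folds from 3.74 at aldh1a2 to 10.5 at rad21 and a median of 5.09. The exception was cdx4. For comparison, the 18639 protein-coding genes that carried a gene-end peak had a median of 4.34. That value lies above the cofactor median and below the regulator median, and neither difference was tested. The folds were 5.09 at cdx2, whose product activates posterior hox genes, and 6.74 at cyp26a1, which encodes a retinoic acid-degrading enzyme. They were 4.19 at ezh2, the Polycomb methyltransferase gene, and 3.89 at ctcf, whose product binds boundaries between hox domains. Besides rad21, the regulators with a higher fold than cyp26a1 were suz12 (8.98), bmi1 (8.53), cbx2 (8.23) and cyp26c1 (7.19).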

How the data were processed

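ATAC-seq peaks of 1 urostyle library at stage 65 were analysed. Bowtie2, Picard, MACS2 and Genrich are named without roles or versions in the submitters' processing notes, whereas filters and peak settings are not named. For each peak, the deposited stage 65 list gives a fold, with -log10 p and -log10 q (smallest 1.45). The fold was read as pileup at the summit plus 1, over background plus 1. The deposited signal of the stage 56 and stage 61 lists is a peak area, and only their peak numbers were used. Dividing each fold by 0.150 gave a whole number for 100% of peaks (tolerance 0.01, or the file's rounding for large folds). That number less 1 was taken as the pileup. Deposited -log10 p matched a Poisson tail with a mean of 5.68 fragments (median absolute difference 2.6e-06). PCR duplicates would make fragments less independent than the intervals assume.

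Genes came from the RefSeq table of UCB_Xtro_10.0. The build of the list is not named. On 10 of 10 chromosomes the last peak ended beyond the last protein-coding gene, by 1.88 to 191 kb, which does not settle the build. Coordinates are those of the list, 1-based, all on chromosome 6. Peaks were assigned by an overlap of at least 1 bp and to gene ends within 1 kb. Python 3.11.15, pandas 2.3.3, numpy 2.4.6 and SciPy 1.17.1 were used, and overlap, coverage and merging were tested on simulated data. Shares have exact Clopper-Pearson and counts exact Poisson 95% intervals, and medians have binomial order-statistic intervals. All members are named, with the highest and widest peaks. Members and lists were chosen with earlier results of these data known. No genome sequence or promoter table was used here, so the planned motif search was not run.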

Additional observations from a re-analysis of the deposited data

How the results depend on the processing

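No paired analysis was possible because each stage has 1 library and stage 65 alone was used. Assignment by summit and merging of peaks less than 100 bp apart moved no result beyond its interval; by summit, 4 in place of 5 members had a gene-end peak. Keeping only peaks with -log10 q of at least 5 left 25 of 54 peaks, which covered 7.49% with a median fold of 3.89, a median width of 637 bp and a median spacing of 8397 bp. It turned the posterior minus anterior difference in median fold to -0.15, which is only 1 step of the fold scale. The same filter set the difference in covered share to 8.32 percentage points, against 6.93 with all peaks. Dividing the cluster at its midpoint gave 5.96 points, and leaving out the 2 widest peaks, chosen after seeing the data, gave -0.88 points. Flanks of 200 kb gave 83 peaks and 10.1% covered, flanks of 50 kb 14.1% covered, and no flank 17 peaks and 13.2% covered. Within 500 bp, 2 of 7 members had a gene-end peak, and within 2500 bp all 7 had one. Summits of 14 to 35 fragments limit every comparison within the region.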
